A study of Mus musculus with 98 samples.

Results

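The 10 genes described here are known targets of the transcription factor NF-kB and inflammatory messengers: Traf1, Nfkbia, Relb, Icam1, Ccl2, Ccl3, Ccl4, Cxcl1, Il1b and Tnf. The list was chosen by name, and Traf1 was selected on its own readout, a fall with ACSS2 in neurons on culture day 21, so its values in those libraries are given below as a description and support nothing. All 10 were found in each of the 6 count tables, among 25239 genes in the neuron tables with virus and 55367 in the other tables.

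The study raised ACSS2, the enzyme that makes acetyl-CoA from acetate in the cytoplasm and nucleus, in mouse hippocampal neurons and in mice, in 98 libraries of 22 groups. Primary embryonic hippocampal neurons (CD1 strain for the unstimulated cultures) received a PhP.eB virus, either one for Acss2 (upACSS2) or a vector virus, on day 5 for 48 hours and, after a wash on day 7, the tau material hAD-tau or PBS. They were collected on day 9, on day 21, or on day 21 after a stimulation whose kind the labels do not state, with 3 libraries in each of 12 groups. A further set of CD1 cultures without virus had hAD-tau (4 libraries) or PBS (3 libraries) and was collected on day 21.

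Male C57BL6 mice of 22 to 23 months (whole hippocampus, 12 mice with upACSS2 and 12 with vector, 1.5e+11 viral genomes 2 months before) were taken 30 minutes after recall of a learned context. Male C57BL6 mice of 10 months (dorsal hippocampus, 6 with upACSS2 and 5 with vector, 1.2e+11 viral genomes) were taken 30 minutes after fear conditioning. Male PS19 mice, a transgenic tau line, were injected at 2.5 months with 1.5e+10 viral genomes and taken 1 or 6 months later, 5 mice in each of 4 groups, also 30 minutes after recall. All virus groups therefore share the PhP.eB capsid, and all mice a behavioural session. At 1 month the PS19 tissue entry differs with the virus, whole hippocampus for upACSS2 and dorsal for vector, and these cannot be told apart. The labels do not name the promoter of the virus, or say whether neuron libraries came from separate cultures, so p-values among them measure the spread between these libraries.

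Groups were taken from the sample titles, and the treatment entry contradicts the title in several groups. On both days the entry reads vector and PBS for the libraries titled vector and hAD-tau, and upACSS2 and hAD-tau for those titled upACSS2 and PBS. Each unstimulated contrast of tau with PBS therefore rests on the titles and on the column headers of the counts. These headers read AD or PBS as the titles do. The entry also reads vector for the PS19 mice titled upACSS2 at 1 month. Acss2 itself was 1487 to 5460 CPM (counts scaled to a common library size) in the neuron libraries titled upACSS2 and 40.1 to 57.8 CPM in those titled vector, which bears on the virus and not on tau. In the aged mice it was 46.6 to 61.4 CPM with upACSS2 and 39.9 to 53.6 with vector, and in the PS19 mice 44.9 to 1463 with upACSS2 and 43.0 to 66.3 with vector, so the groups overlapped in both. In the 10-month mice it was 49.8 to 59.1 CPM with upACSS2 and 42.1 to 48.7 with vector, without overlap. Total counts ran from 5075099 to 39985460 per library. Summed neuron markers were present in every library, and so were astrocyte markers, at 2294 to 20599 CPM in the cultures. Summed microglia markers (18 genes) were 20.9 to 62.8 CPM in the neuron libraries with virus, 75.7 to 827 in the cultures without virus and 608 to 2279 in the mice. In bulk RNA, fewer cells of a type and less RNA per cell cannot be told apart.

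NF-kB proteins are held in the cytoplasm by inhibitors, of which Nfkbia (IkB-alpha) is the best known. Signals from receptors for TNF, IL-1 or microbial products lead to the loss of the inhibitor, NF-kB enters the nucleus, and it switches on Nfkbia itself as negative feedback. Relb is a subunit of the slower, noncanonical branch, and Traf1 is an adaptor of TNF receptor family signalling. Icam1 is an adhesion molecule for leukocytes. Ccl2 attracts monocytes, Ccl3 and Ccl4 attract several leukocyte types, and Cxcl1 attracts neutrophils. Il1b and Tnf are the cytokines that themselves start the pathway, and in brain microglia are a main source of both.

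RefSeq promoter windows (GRCm38.p6, 250 bases before to 50 after the start site) were available for 7 of the 10 genes, namely Traf1, Nfkbia, Icam1, Ccl3, Cxcl1, Il1b and Tnf, and not for Relb, Ccl2 and Ccl4. The kappaB consensus, searched on both strands, was in the windows of Nfkbia and Cxcl1 and in 8.46% of 32817 windows. The letters GGAATTTCC, a form of the consensus without its first letter, were searched on both strands after the consensus had not been found in Icam1. They were in the windows of Nfkbia, Cxcl1 and Icam1 and in 0.317% of windows. In Nfkbia and Cxcl1 they overlap the match of the consensus. Because the letters were chosen after that search, the match in Icam1 is a description and supports nothing. The 4 windows below belong to the genes with enough counts to compare among neurons, printed 5′ to 3′ on the strand of the gene with matches in capitals. Nfkbia is at chr12:55492598-55492897 on the minus strand, Cxcl1 at chr5:90890995-90891294 on the plus strand, Icam1 at chr9:21015690-21015989 on the plus strand and Traf1 at chr2:34961723-34962022 on the minus strand. A match is a description of letters, and its absence from Traf1 says only that they are not in this window.
Nfkbia: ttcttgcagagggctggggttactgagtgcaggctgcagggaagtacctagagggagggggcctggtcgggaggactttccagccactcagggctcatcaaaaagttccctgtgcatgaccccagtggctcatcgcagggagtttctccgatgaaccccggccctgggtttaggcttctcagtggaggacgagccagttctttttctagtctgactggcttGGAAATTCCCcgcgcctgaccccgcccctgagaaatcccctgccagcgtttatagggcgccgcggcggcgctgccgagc
Cxcl1: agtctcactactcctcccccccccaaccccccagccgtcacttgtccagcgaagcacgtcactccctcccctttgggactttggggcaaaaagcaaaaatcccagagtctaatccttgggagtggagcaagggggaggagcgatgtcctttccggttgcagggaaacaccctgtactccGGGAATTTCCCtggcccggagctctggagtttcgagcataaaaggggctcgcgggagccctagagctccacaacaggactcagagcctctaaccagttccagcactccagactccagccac
Icam1: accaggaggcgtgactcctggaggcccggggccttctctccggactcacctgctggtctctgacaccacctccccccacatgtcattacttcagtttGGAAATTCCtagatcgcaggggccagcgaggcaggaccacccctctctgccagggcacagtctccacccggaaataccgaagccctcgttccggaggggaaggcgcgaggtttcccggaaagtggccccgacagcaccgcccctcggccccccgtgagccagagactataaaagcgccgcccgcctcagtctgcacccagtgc
Traf1: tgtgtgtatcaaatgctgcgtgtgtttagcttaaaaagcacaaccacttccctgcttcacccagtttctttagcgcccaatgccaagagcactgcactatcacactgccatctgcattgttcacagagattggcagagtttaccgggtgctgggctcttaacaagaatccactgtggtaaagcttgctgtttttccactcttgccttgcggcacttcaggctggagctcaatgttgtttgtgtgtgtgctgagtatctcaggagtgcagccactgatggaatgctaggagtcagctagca

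Per kilobase of exon, the mean level of Nfkbia was the highest of the 10 genes in all 22 groups, at 9.28 to 20.3 CPM per kb. Relb was next in all 22 groups, at 1.28 to 4.09 CPM per kb. The cytokines and CC chemokines were near the limit of detection in the neuron cultures with virus. Of the 10 genes, 5 passed the filter on low counts in the unstimulated neuron table and 5 in the stimulated table (Traf1, Nfkbia, Relb, Icam1 and Cxcl1), 7 in the cultures without virus (with Ccl3 and Ccl4), 3 in the aged and 3 in the 10-month mice (Nfkbia, Relb and Icam1) and 6 in the PS19 mice (those 3 with Traf1, Ccl3 and Ccl4). Ccl2, Il1b and Tnf passed in none and are given as counts.

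Nfkbia, Relb and Icam1 rose between day 9 and day 21 in neurons with vector and PBS, and Traf1, selected on these day 21 libraries, is described beside them. Nfkbia was 16.4, 17.1 and 17.6 CPM on day 9 and 23.8, 22.2 and 25.1 on day 21. Relb was 6.31, 6.33 and 6.18 CPM on day 9 and 15.9, 12.2 and 7.68 on day 21. Traf1 was 0.490, 0.543 and 0.121 CPM on day 9 (16, 9 and 2 counts) and 2.80, 2.04 and 15.2 on day 21 (57, 53 and 531 counts). In Nfkbia, Relb and Traf1 every day 21 library lay above every day 9 library, and the high Traf1 value belongs to replicate 3 alone.

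The log2 fold change was 0.48 ± 0.098 (SE) for Nfkbia (edgeR, adjusted p = 0.000324, n = 3 against 3) and 0.91 ± 0.22 for Relb (adjusted p = 0.00131). For Traf1 it was 4.06 ± 0.71, given without a test. Icam1 was 2.02, 1.81 and 2.79 CPM on day 9 and 3.63, 2.38 and 11.2 on day 21, with a log2 fold change of 1.41 ± 0.41 (adjusted p = 0.00648), and its groups overlapped. Thus 3 of the 4 genes other than Traf1 rose, where 57.7% of all genes tested changed, so the share of calls is near the background of a contrast in which most genes move. Cxcl1 changed by 0.71 ± 0.50 (adjusted p = 0.234). Groups did not overlap for 3 of the 5, Traf1 included, against 58.3% of all genes.

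Replicate 3 of the day 21 vector and PBS cultures set 2 of these values. Without it the log2 fold change of Icam1 was 0.43 (adjusted p = 0.263) and that of Traf1 2.55. The same library had the highest astrocyte marker sum of the day 21 cultures, 20599 CPM against 8339 and 4768 in its group, and the lowest neuron marker sum, 4573 CPM, while its Relb was the lowest of the 12 day 21 libraries. The part of astrocyte content in these differences was not tested. Astrocyte markers were 2316 to 2877 CPM over all day 9 libraries and 3728 to 20599 over all day 21 libraries.

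Because Traf1 was selected on day 21 libraries, the days were also compared in the other 3 groups, after the data were seen. Nfkbia rose in each, by 0.50 ± 0.10 with vector and tau, 0.51 ± 0.099 with upACSS2 and PBS and 0.58 ± 0.098 with upACSS2 and tau (edgeR, adjusted p = 0.000323, 0.000236 and 5.18e-05). Relb rose in each, by 1.49 ± 0.23, 1.03 ± 0.22 and 1.17 ± 0.22 (adjusted p = 1.62e-05, 0.00056 and 0.000166). The log2 fold change of Traf1 was 2.05 ± 0.77 with vector and tau, 1.44 ± 0.76 with upACSS2 and PBS and 2.12 ± 0.70 with upACSS2 and tau, again as a description, since these are the day 21 libraries of its selection. Icam1 passed in none of the 3 (adjusted p = 0.388, 0.16 and 0.148). Cxcl1 rose by 2.61 ± 0.48 with upACSS2 and tau (adjusted p = 0.000113). Of the 4 genes other than Traf1, 2, 2 and 3 were called, against 52.6%, 54.3% and 53.6% of all genes.

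In the same contrast of days with vector and PBS, of 45 genes tested of a pathway list of 68, 27 rose and 4 fell, where 57.7% of all genes were called. Lcn2, an iron-binding secreted protein, rose by 6.72 ± 1.40 (log2), Cxcl10, a chemokine for T cells, by 4.15 ± 0.87, and Birc3, an inhibitor of cell death, by 3.41 ± 0.57. Il1r1, the IL-1 receptor, rose by 3.05 ± 0.44, Cxcl5, a neutrophil chemokine, by 2.73 ± 0.72, and Ptgs2, which makes prostaglandins, by 2.69 ± 0.56 (edgeR, adjusted p = 0.000378, 0.000386, 3.68e-05, 6.42e-06, 0.00304 and 4e-04 in this order). The median log2 fold change was 0.58 over the 45 genes and 0.05 over all genes tested. Over the settings 22 to 36 pathway genes were called, and 27 to 36 with 1 library left out. How far replicate 3 of the day 21 vector and PBS cultures set the named changes is not given.

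**Figure D1:**
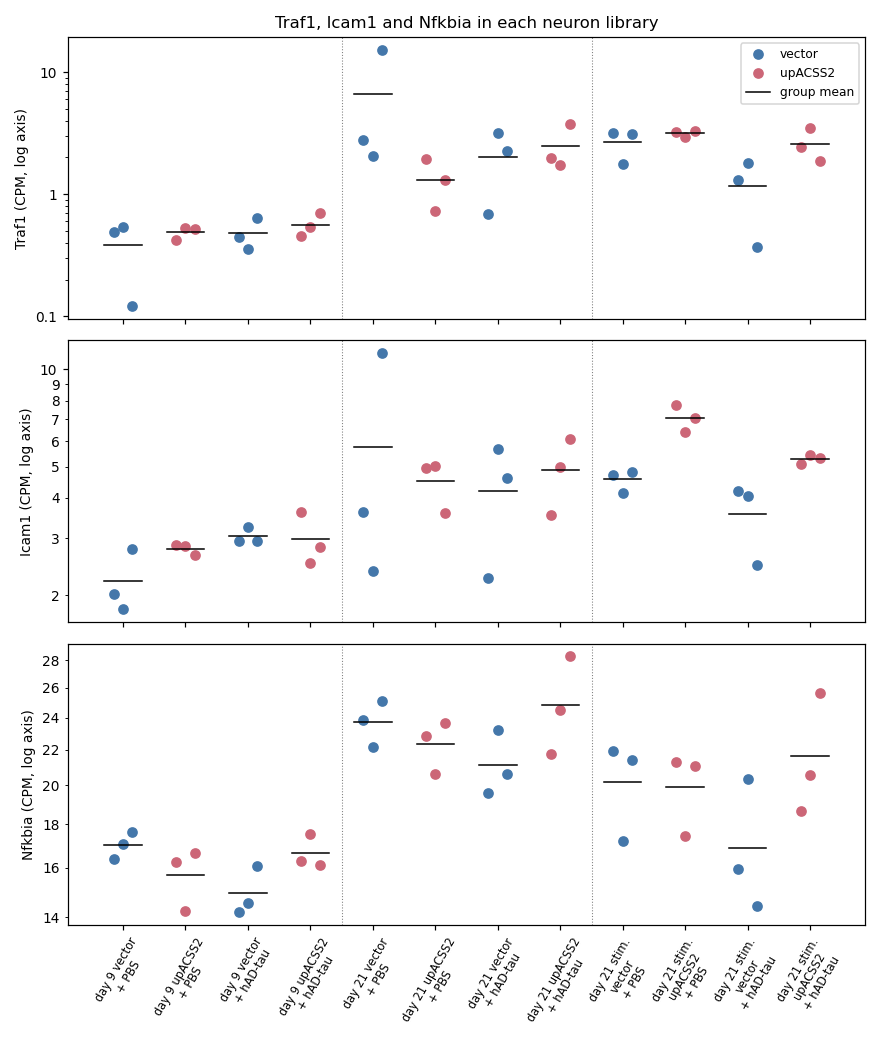
Level of Traf1, Icam1 and Nfkbia (CPM, log axes) in each of the 36 neuron libraries with virus; points are libraries and lines are group means, and the unstimulated and stimulated tables were scaled separately. Traf1 on day 21 reached 15.2 CPM in 1 vector and PBS library and was 0.684 to 3.76 CPM in the other 11.

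The fall of Traf1 that led to its selection was seen in PBS cultures on day 21. Traf1 was 2.80, 2.04 and 15.2 CPM with vector and 1.92, 0.735 and 1.30 with upACSS2. All 3 upACSS2 libraries lay below all 3 vector libraries, and the distance was set by replicate 3 of the vector group: the log2 fold change was -2.37 ± 0.78, and -0.86 without that library. Microglia markers were 22.3 to 24.5 CPM with upACSS2 and 28.4 to 42.7 with vector, and fibroblast and meningeal markers 12 to 15.2 against 15.9 to 28.4, both without overlap, and their part was not tested. In tau cultures Traf1 was 0.684, 3.18 and 2.24 CPM with vector and 1.99, 1.74 and 3.76 with upACSS2, and the groups overlapped. Of the 4 genes other than Traf1, none was called in either contrast, where 0.0137% and 0.0273% of all genes were called, and nothing is read from these counts because Traf1 was selected on the effect of ACSS2 on this day. Groups did not overlap for 1 of the 5 in PBS (Traf1, 17.4% of all genes) and 1 of the 5 in tau (Cxcl1, 21.7%). In tau, astrocyte markers were 6218 to 11681 CPM with upACSS2 against 3728 to 5897 with vector, and microglia markers 30.1 to 37.4 against 38.5 to 62.8. Endothelial markers were 1.31 to 1.67 CPM against 0.782 to 0.9725, and choroid plexus markers 4.09 to 5.75 against 2.99 to 3.78. None of these sums overlapped, and their part was not tested.

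The stimulated cultures, which were not used to choose Traf1, gave other values. In PBS, Traf1 was 3.17, 1.77 and 3.11 CPM with vector and 3.25, 2.92 and 3.27 with upACSS2. The groups overlapped, with a log2 fold change of 0.25 ± 0.38 (edgeR, adjusted p = 0.789). In tau, Traf1 was 1.31, 1.81 and 0.367 CPM with vector and 2.41, 3.52 and 1.86 with upACSS2, so all 3 upACSS2 libraries were higher. The log2 fold change was 1.14 ± 0.42 (adjusted p = 0.158). The difference between the effects in tau and in PBS was 0.89 ± 0.57 (adjusted p = 0.488).

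Icam1 was higher in all 3 upACSS2 libraries than in all 3 vector libraries in both arms of the stimulated experiment, without passing the threshold. In PBS it was 4.73, 4.15 and 4.82 CPM with vector and 7.77, 6.40 and 7.08 with upACSS2, a log2 fold change of 0.64 ± 0.18 (edgeR, adjusted p = 0.141). In tau it was 4.21, 4.04 and 2.48 CPM with vector and 5.09, 5.43 and 5.33 with upACSS2, a log2 fold change of 0.56 ± 0.19 (adjusted p = 0.122). DESeq2 called the difference in PBS (adjusted p = 0.0269). On day 9 the log2 fold change of Icam1 was 0.35 ± 0.18 in PBS (adjusted p = 0.221) and -0.03 ± 0.17 in tau (adjusted p = 0.968).

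In the tau arm of the stimulated cultures Cxcl1 was 1.68, 1.59 and 1.24 CPM with vector and 1.77, 3.20 and 2.96 with upACSS2, above in all 3 (log2 fold change 0.82 ± 0.40, edgeR, adjusted p = 0.273). Relb was 15.7, 14.9 and 17 CPM with vector and 11, 11.5 and 14.4 with upACSS2, below in all 3 (-0.37 ± 0.19, adjusted p = 0.3). Nfkbia was 15.9, 20.3 and 14.4 CPM against 18.6, 20.6 and 25.6, and overlapped. No gene of the 5 tested was called in the 2 stimulated contrasts of virus (0.208% of all genes in PBS, 0.937% in tau). Groups did not overlap for 1 of 5 in PBS and 4 of 5 in tau, against 22.7% and 24.7% of all genes. The astrocyte marker sum was 4832, 4775 and 3091 CPM with vector and tau, 8538, 8092 and 7552 with upACSS2 and tau, 10300, 6368 and 10084 with vector and PBS, and 10089, 5653 and 9764 with upACSS2 and PBS. In tau it was thus higher in all 3 upACSS2 libraries, as were Traf1, Icam1 and Cxcl1, and its part in those differences was not tested. In PBS the astrocyte sums of the groups overlapped, while microglia markers were 25.8 to 28.4 CPM with upACSS2 against 30.0 to 31.8 with vector. Endothelial markers were 0.702 to 0.859 CPM against 0.933 to 1.24 there, and choroid plexus markers 2.44 to 3.61 against 3.85 to 5.79. The sum of 10 neuronal activity genes was 5820 to 6761 CPM with upACSS2 against 6765 to 8257 with vector there. In tau, microglia markers were 30.4 to 36.1 CPM against 39.1 to 53.3, and choroid plexus markers 4.28 to 6.24 against 2.83 to 4.03. None of these overlapped, and their part was not tested. Of 48 pathway genes tested, 1 was called higher with upACSS2 in tau, Cxcl5 (1.72 ± 0.34, adjusted p = 0.0425), and none in PBS. Without any 1 of 5 of the 6 libraries compared in tau, no pathway gene was called, and without vector and tau replicate 2 there were 2. Same-numbered libraries deviated together here, and with the replicate number as a block 399 genes of all were called in place of 140, still none of the 5.

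Against PBS, tau gave no call among the 5 genes in the stimulated cultures, either with vector (3.02% of all genes) or with upACSS2 (0.208%). With vector, Traf1 had a log2 fold change of -1.16 ± 0.42 (edgeR, adjusted p = 0.121). The astrocyte sums given above were lower in all 3 tau libraries than in the PBS libraries with vector, and microglia markers were higher, 39.1 to 53.3 CPM against 30.0 to 31.8, and their part in the changes of Traf1 and Cxcl12 was not tested. Traf1 was called without replicate 2 of the vector and tau group (-1.68, adjusted p = 0.0492) and by DESeq2. With upACSS2, Icam1 was lower in all 3 tau libraries (-0.42 ± 0.18, adjusted p = 0.302), 1 of 5 genes without overlap against 23.7% of all genes. In these upACSS2 libraries microglia markers were 30.4 to 36.1 CPM with tau against 25.8 to 28.4 with PBS. Endothelial markers were 1.01 to 1.46 CPM against 0.702 to 0.859, and choroid plexus markers 4.28 to 6.24 against 2.44 to 3.61. None of these sums overlapped, and their part was not tested. Cxcl12, a chemokine made by several brain cell types, fell by 1.03 on the log2 scale with tau and vector (SE 0.14, adjusted p = 0.0222), the only pathway gene called of 48. No pathway gene was called without vector and tau replicate 1 or 3 or vector and PBS replicate 1 or 3, and 6 and 4 were without replicate 2 of each. With the replicate number as a block, 1069 genes of all were called in place of 451, none of the 5.

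On day 9 no gene of the 3 tested was called with upACSS2 in PBS (10.2% of all genes) or in tau (0.692%), or with tau in vector (4.28%) or in upACSS2 cultures (0.349%). In vector cultures with tau against PBS, Nfkbia was 14.2, 14.5 and 16.1 against 16.4, 17.1 and 17.6 CPM (-0.19 ± 0.081, edgeR, adjusted p = 0.185). Relb was 5.26, 4.08 and 5.65 against 6.31, 6.33 and 6.18 CPM (-0.34 ± 0.13, adjusted p = 0.129), and Icam1 2.95, 3.25 and 2.93 against 2.02, 1.81 and 2.79 (0.49 ± 0.19, adjusted p = 0.134). Thus the groups of all 3 genes did not overlap, 2 below and 1 above, against 21% of all genes. In the same libraries oligodendrocyte lineage markers were 174 to 217 CPM with tau against 271 to 319 with PBS. Neuron markers were 7111 to 7444 CPM against 6665 to 6897, and astrocyte markers 2676.5 to 2789 against 2383 to 2656. The sum of 10 neuronal activity genes was 140 to 168 CPM against 200 to 241. None of these sums overlapped, and their part was not tested. With upACSS2, Relb was below in tau (-0.30 ± 0.12, adjusted p = 0.444; 1 of 3 without overlap, 15.9% of all genes). In those upACSS2 libraries astrocyte markers were 2689 to 2877 CPM with tau against 2316 to 2625 with PBS. Oligodendrocyte lineage markers were 205 to 241 CPM against 258 to 284, and choroid plexus markers 2.26 to 2.48 against 2.94 to 3.67. These sums did not overlap either, and their part was not tested. Nfkbia was above with upACSS2 in tau cultures (0.15 ± 0.081, adjusted p = 0.45; 1 of 3, 16.8% of all genes). In the pathway list 4 genes rose and 2 fell of 40 with upACSS2 in PBS, among them Tnip2, an inhibitor of NF-kB signalling (-0.37 ± 0.092, adjusted p = 0.0143), and Tnfrsf1a, the main TNF receptor (0.29 ± 0.090, adjusted p = 0.04). Neuron markers were 7211 to 7506 CPM with upACSS2 against 6665 to 6897 with vector in PBS, without overlap, and their part was not tested. Cyld, which removes ubiquitin chains from pathway proteins, fell by 0.18 in PBS and by 0.26 in tau on the log2 scale (adjusted p = 0.0376 and 0.0243). With tau in vector cultures Rel, an NF-kB subunit, fell by 0.75 (SE 0.20, adjusted p = 0.0339), with 1 gene higher and 3 lower of 40. No pathway gene was called without vector and tau replicate 1 or 2 or vector and PBS replicate 1, and 7 were without vector and tau replicate 3. With upACSS2 in PBS, 1 pathway gene was called without upACSS2 replicate 2 or vector replicate 1, and 2 without upACSS2 replicate 1.

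On unstimulated day 21, tau against PBS gave no call among 5 genes with vector or with upACSS2, where 0% and 0% of all genes were called by edgeR (1361 and 931 genes at an unadjusted p under 0.05, and up to 29 and 11 in the other settings). With upACSS2, Cxcl1 was 0.752, 0.551 and 1.75 CPM in tau (14, 12 and 40 counts) and 0.369, 0.346 and 0.15 in PBS (9, 8 and 3 counts). All 3 tau libraries were higher, with a log2 fold change of 1.80 ± 0.50 (adjusted p = 0.73), 1 of 5 genes without overlap against 17.7% of all genes. In the same tau libraries microglia markers were 30.1 to 37.4 CPM against 22.3 to 24.5, and fibroblast and meningeal markers 17.5 to 20.7 against 12 to 15.2. Endothelial markers were 1.31 to 1.67 CPM against 0.519 to 0.999, and choroid plexus markers 4.09 to 5.75 against 2.35 to 3.33. Oligodendrocyte lineage markers were lower, 1478 to 1590 CPM against 1747 to 2377. None of these sums overlapped, and their part was not tested. With vector, Cxcl1 was 0.360, 0.365 and 0.352 CPM in tau and 0.540, 0.231 and 0.400 in PBS. In the stimulated table, which was scaled separately, Cxcl1 ran from 1.24 to 3.35 CPM.

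**Figure D2:**
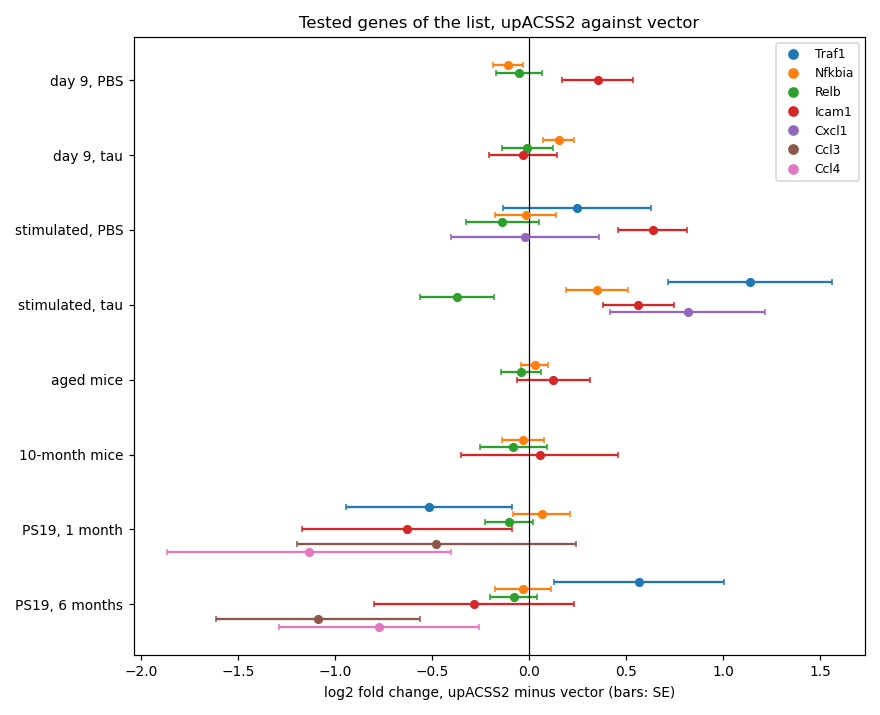
Log2 fold change of upACSS2 against vector (x axis, points, with bars for the SE) for the listed genes that passed the filter in each experiment (y axis); the day 21 contrasts that chose Traf1 are left out. None passed the threshold, and Icam1 was 0.64 and 0.56 in the stimulated cultures.

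The highest counts of Ccl2 (23), Ccl3 (101), Ccl4 (71) and Tnf (27) in the cultures without virus were above those of the cultures with virus. The latter had at most 13, 13, 13 and 2, and the ranges overlapped at the low end. Ccl2 had 6 to 23 counts with tau and 1 to 6 with PBS in the cultures without virus. Ccl3 was 2.99, 4.66, 0.989 and 0.288 CPM with tau and 4.72, 2.66 and 0.903 with PBS. Ccl4 was 1.84, 3.27, 0.396 and 0 CPM with tau and 3.54, 1.59 and 0.108 with PBS, and Tnf had 15, 27, 0 and 0 counts with tau and 2, 11 and 0 with PBS. Summed microglia markers were 614, 827, 214 and 75.7 CPM with tau and 445, 400 and 131 with PBS in the same order. The 4 libraries highest in these markers had the 4 highest values of Ccl3, Ccl4 and Tnf, whether with tau or PBS. Macrophage markers were 148, 246, 52.5 and 11 CPM with tau and 50.7, 93.2 and 25.8 with PBS. The part of these sums in the levels of Ccl3, Ccl4 and Tnf was not tested.

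Nfkbia was higher in all 4 tau libraries, at 34.8, 32.6, 33.2 and 30.3 CPM against 24.4, 26.8 and 21.6, a log2 fold change of 0.43 ± 0.11 (edgeR, adjusted p = 0.306). Cxcl1 was also higher in all 4, at 1.88, 0.876, 1.15 and 0.719 CPM (47, 19, 29 and 15 counts) against 0.168, 0.130 and 0.434 (1, 4 and 12 counts), with a log2 fold change of 2.13 ± 0.56 (adjusted p = 0.306). Icam1 was 3.79, 3.73, 1.42 and 1.87 CPM against 1.68, 1.65 and 0.759 and overlapped (1.03 ± 0.48, adjusted p = 0.379). None of 7 genes was called, and 0% of all genes were (2272 at an unadjusted p under 0.05, 326 by DESeq2, which called Nfkbia at an adjusted p of 0.0466). Groups did not overlap for 2 of 7, against 16.7% of all genes. The neuron marker sum was 2431 to 3276 CPM with tau and 3351 to 5843 with PBS, and the oligodendrocyte lineage sum 2557 to 3948 against 112 to 2115, both without overlap. The sum of 10 neuronal activity genes was 623 to 861 CPM with tau and 348 to 401 with PBS, also without overlap. The part of these sums in the differences of Nfkbia, Cxcl1 and Icam1 was not tested. None of 52 pathway genes tested was called.

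In the neuron libraries with virus, Ccl3 had 0 to 13 counts, Ccl4 0 to 13, Ccl2 0 to 13, Il1b 0 to 2 and Tnf 0 to 2. In the 12 stimulated libraries Tnf had 1 count in all, and Ccl4 had 1. A count of 0 allows up to 0.0736 to 0.158 CPM in a stimulated library (3 counts, counting error only). The day 21 vector and tau replicate 2 stood apart, with 13 counts each of Ccl3 and Ccl4 against 0 in the other 2 libraries of its group, and it had the highest microglia (62.8 CPM) and macrophage (9.18 CPM) marker sums of the unstimulated libraries.

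**Figure D3:**
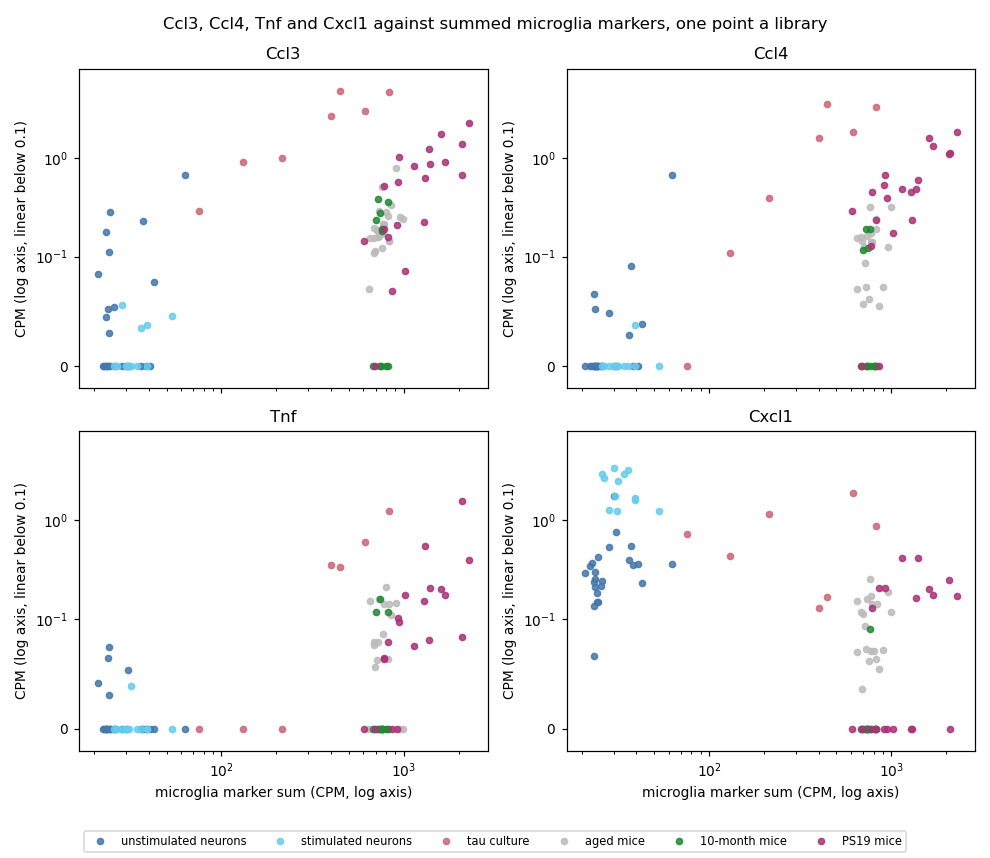
Level of Ccl3, Ccl4, Tnf and Cxcl1 (CPM, log axis, linear below 0.1) against the summed microglia markers (CPM, log axis) with 1 point for each of 98 libraries, coloured by table; tables were scaled separately. Stimulated neurons had 1.24 to 3.35 CPM of Cxcl1 at 25.8 to 53.3 CPM of microglia markers, where Ccl3, Ccl4 and Tnf were at or near 0.

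In the aged mice the 3 genes tested did not pass the threshold with upACSS2: Nfkbia had a log2 fold change of 0.03 ± 0.069, Relb of -0.04 ± 0.10 and Icam1 of 0.13 ± 0.19 (edgeR, adjusted p = 0.996, 0.996 and 0.992, n = 12 against 12). Nfkbia ran from 14.1 to 18.8 CPM (median 16.3) with upACSS2 and from 13.1 to 20.2 (median 15.5) with vector. Icam1 ran from 1.53 to 4.58 CPM (median 2.72) with upACSS2 and from 1.69 to 4.77 (median 2.20) with vector. Here 0% of all genes were called (846 at an unadjusted p under 0.05, up to 14 in the other settings). Ccl2 was highest in vector replicate 9, with 25 counts against 0 to 5 in the other 23 mice.

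In the 10-month mice, at the lowest depth of the series, Nfkbia ran from 14.9 to 20.1 CPM with upACSS2 and from 15.8 to 19.9 with vector (-0.03 ± 0.11, edgeR, adjusted p = 0.949, n = 6 against 5). Relb changed by -0.08 ± 0.17 and Icam1 by 0.06 ± 0.40 (adjusted p = 0.906 and 0.978), and 0% of all genes were called (1204 at an unadjusted p under 0.05, up to 4 in the other settings). Ccl2, Ccl3, Ccl4, Cxcl1 and Tnf had at most 3 counts in any of these 11 mice and Il1b at most 5, so differences in them were not detectable at this depth.

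In the PS19 mice at 1 month, 1 vector mouse had the highest value of its group for Icam1, Ccl2, Ccl3, Ccl4, Il1b and Tnf. Its replicate 5 had 18.8 CPM of Icam1 against 1.60 to 3.70 in the other 4, 49 counts of Ccl2 against 0 to 7, 18 of Tnf against 0 to 2 and 16 of Ccl3 against 2 to 3. It also had the highest microglia (2098 CPM against 608 to 1284) and lymphocyte (16.9 against 0.654 to 6.26) marker sums of its group. Its treatment entry reads upACSS2 while its title reads vector, and its Acss2 was 53.0 CPM, within the vector range. With upACSS2 against vector, Icam1 changed by -0.63 ± 0.54 (edgeR, adjusted p = 0.964) and by 0.58 without that mouse (adjusted p = 0.989). None of the 6 genes was called, nor were any of all genes (0%; 463 at an unadjusted p under 0.05, up to 2 in the other settings).

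At 6 months Ccl3 was 1.22, 1.02, 2.23, 1.72 and 0.918 CPM in vector mice (15, 21, 39, 34 and 21 counts) and 0.827, 0.210, 0.670, 0.862 and 0.565 in upACSS2 mice (22, 2, 8, 29 and 11 counts). All 5 upACSS2 mice lay below all 5 vector mice, with a log2 fold change of -1.09 ± 0.52 that did not pass the threshold (edgeR, adjusted p = 0.357). It was the only 1 of 6 genes without overlap, against 2.49% of all genes. Ccl4 was 0.487, 0.390, 1.83, 1.57 and 1.31 CPM against 0.489, 0.525, 1.09, 0.594 and 0.668, and overlapped (-0.77 ± 0.51, adjusted p = 0.49). None of 6 genes was called, and 0% of all genes were (2237 at an unadjusted p under 0.05, up to 135 in the other settings). The mean of Traf1 was 0.112 CPM per kb with upACSS2 and 0.0727 with vector (SD 0.0400 and 0.0237). At 1 month it was 0.118 with upACSS2 and 0.176 with vector (SD 0.0471 and 0.134), and the groups overlapped at both times. Microglia markers were 943 to 2279 CPM in vector and 916 to 2078 in upACSS2 mice, and their part was not tested. Acss2 was 44.9 and 55.3 CPM in 2 of the upACSS2 mice, within the 43.0 to 55.9 of the vector mice.

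From 1 to 6 months in vector mice, Ccl3 was 0.158, 0.226, 0.191, 0.145 and 1.39 CPM at 1 month before the values just given, a log2 fold change of 1.80 ± 0.58 (edgeR, adjusted p = 0.0641). Ccl4 changed by 1.38 ± 0.56 (adjusted p = 0.13), Icam1 by 0.04 ± 0.52 (adjusted p = 0.974) and Traf1 by -1.23 ± 0.43 (adjusted p = 0.0811). None of 6 was called, against 7.46% of all genes. Without replicate 5 at 1 month, 3 were called: Ccl3 (2.90, adjusted p = 0.00594), Ccl4 (2.00, adjusted p = 0.0401) and Icam1 (1.22, adjusted p = 0.0347), where 8.52% of all genes were called. Ccl3 was 0.145 to 0.226 CPM in the vector mice left at 1 month and passed the filter on low counts through the 6 month mice. Its test between these times, with or without replicate 5, is therefore a description and supports nothing. In the pathway list 4 of 58 genes rose and 0 fell with all mice: Cxcl5 by 2.81 ± 0.56, Csf1, a growth factor of microglia, by 0.78 ± 0.19, and the kinase genes Chuk by 0.49 ± 0.11 and Ikbkb by 0.34 ± 0.072 (adjusted p = 0.00741, 0.0194, 0.0127 and 0.0108). Microglia markers were 608 to 2098 CPM at 1 month and 943 to 2279 at 6 months in these mice.

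**Figure D4:**
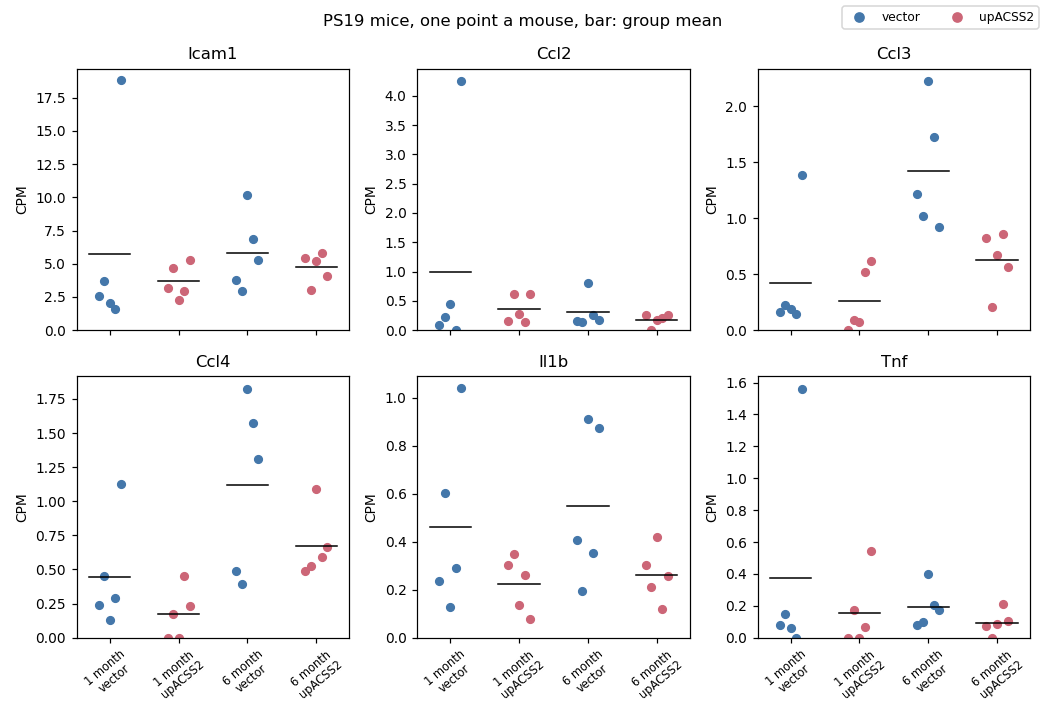
Level (CPM, axes from 0) of Icam1, Ccl2, Ccl3, Ccl4, Il1b and Tnf in the 20 PS19 mice, with points for mice and bars for group means. The vector mouse at the top of each 1 month group is replicate 5, and at 6 months all 5 upACSS2 mice lie below the vector mice for Ccl3.

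Over all 98 libraries, with the mean of each table subtracted, the genes ranked most like Nfkbia of 12682 were Msn, Osmr, C4b, Tnfrsf1a and Parp3 (Spearman 0.834, 0.834, 0.832, 0.827 and 0.820). Those most like Icam1 were Tgfbr2, Vim, Msn, Osmr and Parp9 (0.782, 0.746, 0.719, 0.712 and 0.712). The libraries share the difference between culture days and the depth of each library, so these are descriptions. No such ranking was made for Traf1, which failed the filter in 2 tables. Exons of Icam1 overlap Gm47079 and those of Il1b overlap Il1bos, each on the opposite strand, and the strand setting of the counting was not given, so their reads cannot be told apart.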

How the data were processed

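The authors deposited 6 tables of raw read counts per gene symbol, 1 column per library. Per the submitters' processing notes, STAR, featureCounts, HTSeq and DESeq2 were used with the mm10 build; versions, strand setting and annotation are not given in the sources used here. A row without a gene name, 6.13% to 8.74% of the counts of the cultures without virus, was left out. All 98 columns were used (0 unmapped).

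Differences in counts were tested two-sided by edgeR's quasi-likelihood method (version 4.0.16, R 4.3.3) after TMM scaling and filterByExpr with the groups as design, with Benjamini-Hochberg adjustment over all genes tested (threshold 0.05). Day 9 and day 21 neurons were fitted separately, the 24 unstimulated libraries together only to compare days, and each other table in 1 fit. DESeq2 1.42.0, RLE scaling, no filter, fewer or more libraries and a replicate block were alternatives. Tables were scaled separately. The code was tested on simulated data. The precision of each value depends on its counts, which are printed where low.

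The genes, lists and tests were chosen with earlier results of these data known. Named genes are the 10 listed, Acss2, at most the 6 pathway genes per comparison past the threshold with the largest change, and the 5 most similar genes. Positions and exon lengths came from GENCODE vM21 (GRCm38). Same-numbered libraries deviated together in all 3 pairs (correlation over 0.1) in the stimulated cultures for virus in tau (0.111 to 0.383) and tau in vector (0.14 to 0.344) and in the cultures without virus (0.22 to 0.394).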

Additional observations from a re-analysis of the deposited data

Results flagged for a closer look

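Among 68 checks of groups of 4 to 10 libraries, 8 had a library far from the others by Dixon's ratio on log2 CPM; chance gives about 1 in 20, and 3 of the 8 are single counts in groups otherwise at 0, which meet it by construction. In PS19 vector mice at 1 month, Ccl3 was 1.39 CPM (16 counts) in replicate 5 and 0.145 to 0.226 in the other 4. At 6 months, Ccl2 was 0.799 CPM (14 counts) in vector replicate 3 and 0.146 to 0.253 in the others of its group, and 0 in upACSS2 replicate 2 against 0.167 to 0.263. Cxcl1 was 0 in 6 month vector replicate 2 and 0.162 to 0.203 in the others.

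The other 4 are 10-month mice at 1 to 3 counts. Traf1 was 0.354 CPM (3 counts) in vector replicate 3 and 0.769 to 0.888 in the other 4. Single counts gave 0.123 CPM of Ccl4 in upACSS2 replicate 5, 0.0912 CPM of Cxcl1 in vector replicate 1 and 0.118 CPM of Tnf in vector replicate 3, where the rest of each group was at 0.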

How the results depend on the processing

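The number of the 10 genes called differed from the value reported in few settings. DESeq2 called 1 in each of day 21 upACSS2 against vector in PBS (Traf1), stimulated upACSS2 against vector in PBS (Icam1), stimulated tau against PBS with vector (Traf1) and tau against PBS without virus (Nfkbia). With all 24 unstimulated libraries in the fit, 1 was called on day 21 with upACSS2 in PBS (Traf1) and 1 in tau (Cxcl1). The calls of Traf1 on day 21 rest on the values that selected it and support nothing. Between days, with Traf1 counted, 4 were called, 2 in the upACSS2 and PBS libraries, 3 with only the groups compared, 5 of 10 with no filter (Ccl2 in addition) and 3 to 4 with 1 library left out. Leaving out 1 library gave 0 to 1 called for stimulated tau against PBS with vector and 0 to 3 for vector PS19 mice at 6 against 1 month. It moved the log2 fold change of Traf1 in stimulated PBS cultures from -0.0031 (without vector replicate 2) to 0.38, that of Icam1 in PS19 mice at 1 month from -0.85 to 0.58 (without vector replicate 5), and that of Icam1 at 6 against 1 month from -0.26 to 1.22. The last was -0.16, -0.09, -0.18 and -0.21 without 1 month replicates 1, 2, 3 and 4 and -0.03 without 6 month replicate 4. The cause was not tested.

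A replicate block left the members called at 4 between days and at 0 in the other 18 comparisons. With the replicate block, all genes called were 280 in stimulated PBS (31 without it), 487 for tau with upACSS2 (31), 13 in aged mice (0), 782 for PS19 vector mice over time (1182) and 1 on day 21 in tau (4), where the numbers did not pair the libraries.

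Counts over all genes moved more. Over the settings they were 2 to 1898, 1 to 368, 1 to 1409 and 0 to 201 in the day 9 comparisons, 1 to 1576, 1 to 528, 0 to 29 and 0 to 11 on day 21, 1 to 422, 1 to 966, 0 to 1534 and 0 to 487 in stimulated cultures, each in the order upACSS2 in PBS, upACSS2 in tau, tau with vector, tau with upACSS2. They were 0 to 326 without virus, 0 to 14 in aged, 0 to 4 in 10-month and 0 to 2, 0 to 135 and 374 to 1901 in PS19 mice. RLE scaling moved 0 of 220 group means by more than 1 SD, and plain library totals moved 6. Genes under 3 counts cannot be compared at these depths.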
